A study of Mus musculus with 6 samples.

Results

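The genes described here are 10 transcripts by which Purkinje neurons of the cerebellum are commonly recognised: *Pcp2*, *Pcp4*, *Calb1*, *Car8*, *Pvalb*, *Itpr1*, *Ppp1r17*, *Rgs8*, *Rora* and *Homer3*. They are listed by name as known genes of the cell type, and all 10 were found among the 31053 genes of the count table and among the 10889 genes with enough counts to be tested. Each was counted in all 5 libraries, with 7 to 344 counts a library. They were measured by bulk RNA sequencing of polyA RNA from the cerebellum of WT mice (2 libraries, replicates 1 and 2) and KIKO mice (3 libraries, replicates 1, 2 and 3). KIKO (knock-in knock-out) mice carry a knock-in allele over a null allele and are a model of Friedreich ataxia, an inherited mitochondrial disease. The WT mice were C57BL/6 littermates of the KIKO mice. The study's methods describe housing of both sexes. The study gives different ages for its sequencing of sorted cells and for its butyrate-fed mice, and the butyrate-fed mice were male. Which age and sex apply to these libraries was not settled here. The labels give no treatment for either genotype. The labels name the whole cerebellum as the source, whereas the study's methods describe CD45+/CD11b+ cells taken from it with magnetic beads. WT replicate 3 is labelled but is not analysed here.

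Purkinje neurons are the large GABAergic neurons whose axons are the only output of the cerebellar cortex. Glutamate from parallel fibres acts on metabotropic receptors at their dendritic spines, which through Gq and phospholipase C makes IP3 and opens the IP3 receptor ITPR1 on calcium stores. The cells hold calcium-binding proteins at high levels, and the nuclear receptor RORα is needed for their maturation and survival. Loss of Purkinje neurons or of their dendrites is a common feature of inherited ataxias. In Friedreich ataxia the cerebellar damage is best known in the dentate nucleus, the target of Purkinje axons. *Itpr1*, *Rora* and *Pvalb* are also expressed by other cerebellar cells, *Pvalb* and *Rora* for example by interneurons of the molecular layer.

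Promoter sequence was available from RefSeq (build GRCm38.p6) for 6 of the 10 genes, as 12 windows of 250 bases before to 50 bases after an annotated start. The letters AGGTCA, the core that ROR receptors bind, were searched on both strands. They were present in 6 of the 12 windows and in 4 of the 6 genes (*Pcp2*, *Pcp4*, *Rgs8* and *Homer3*), and in 16.3% of the 32851 windows and 18.1% of the 27025 genes of the whole table. A pair of the 3 *Pcp2* windows that hold the motif overlap and share one match. *Pcp2* and *Rgs8* had several windows each, and a gene with more windows has more chances to hold the letters. The shares of genes are therefore not like for like. The windows of *Pcp2* and *Rgs8* are shown because these were the members with every KIKO library above every WT library. Capitals mark the motif, which begins 12 bases before the start of *Pcp2* (chr8:3625498-3625797, minus strand) and 136 bases before an annotated start inside the *Rgs8* gene (chr1:153665423-153665722, plus strand). The other *Rgs8* windows, the one at the first base of the gene included, did not hold these letters. Both sequences are written 5′ to 3′ in the direction of the gene.
Pcp2: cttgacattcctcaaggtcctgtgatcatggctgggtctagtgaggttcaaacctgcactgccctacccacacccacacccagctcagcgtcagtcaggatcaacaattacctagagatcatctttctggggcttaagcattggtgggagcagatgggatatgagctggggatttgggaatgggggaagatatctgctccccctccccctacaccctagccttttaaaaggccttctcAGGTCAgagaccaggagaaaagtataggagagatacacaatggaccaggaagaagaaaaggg
Rgs8: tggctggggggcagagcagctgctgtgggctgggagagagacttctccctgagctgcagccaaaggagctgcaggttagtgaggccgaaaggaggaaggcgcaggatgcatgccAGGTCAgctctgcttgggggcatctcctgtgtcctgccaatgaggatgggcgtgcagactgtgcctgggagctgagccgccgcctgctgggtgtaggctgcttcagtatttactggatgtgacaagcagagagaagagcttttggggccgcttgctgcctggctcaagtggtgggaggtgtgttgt
The match lay 164 bases before the start in *Pcp4* and 157 bases before it in *Homer3*, on the opposite strand in both. Only these 6 letters were searched, and the bases beside them were not examined. A match of these letters is a description of the sequence and was not tested as a binding site.

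The 5 libraries held 1013107 to 1351339 counts. KIKO replicate 2 stood apart from the others: its log2 CPM correlated with theirs at r = 0.656 to 0.732 across genes, against 0.877 to 0.926 among the other 4. Fold changes, sums and counts of genes are therefore also given without it, whereas the distances between patterns use all 5 libraries. Of all genes tested, 131 (1.20%) passed the study's thresholds, an absolute log2 fold change over 0.75 with an unadjusted p under 0.05 (edgeR's quasi-likelihood test), and none had a Benjamini-Hochberg adjusted p under 0.05 by edgeR, DESeq2 or limma, beside 131 with an unadjusted p under 0.05 by edgeR.

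All 10 Purkinje neuron genes had a positive log2 fold change in KIKO over WT, and none passed the thresholds. The sign was the same for all 10 with other size factors and with DESeq2, but it turned for *Ppp1r17* with limma on the log2 values and for *Homer3* and *Rora* when the replicate number was blocked. The median of the 10 was 0.45, beside 0.02 over all genes tested, of which 51.9% were above 0 and 20.7% were at or above 0.45. Past the thresholds and higher in KIKO were 0 of the 10, beside a background of 0.716%, and none had an unadjusted p under 0.05 by edgeR, DESeq2 or limma. All 3 KIKO libraries lay above both WT libraries for *Pcp2* and *Rgs8*, 2 of 10 genes, beside a background of 8.14%. The log2 fold changes ran from 0.03 for *Homer3* to 1.03 for *Calb1*. In bulk RNA, fewer or more cells of a type and less or more RNA in each cell cannot be told apart. Nothing in the labels says that the libraries came from separate mice, so that the p-values measure the spread between these libraries.

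Without KIKO replicate 2 the median was 0.64, beside −0.01 over all genes, and all 10 were again above 0. *Calb1*, *Car8* and *Pvalb* then passed the thresholds, 3 of 10 genes beside a background of 2.94%, though none reached an adjusted p under 0.05. The remaining KIKO libraries were both above both WT libraries for 7 of 10 genes, beside a background of 19.5%; the exceptions were *Pcp4*, *Ppp1r17* and *Homer3*. Without WT replicate 2 the median of the 10 was 0.26. Leaving out WT replicate 1 gave 6 of 10 such genes beside 18.4%. The count stayed at 2, *Pcp2* and *Rgs8*, when WT replicate 2, KIKO replicate 1 or KIKO replicate 3 was left out, beside backgrounds of 21.7%, 13.0% and 13.7%.

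**Figure D1:**
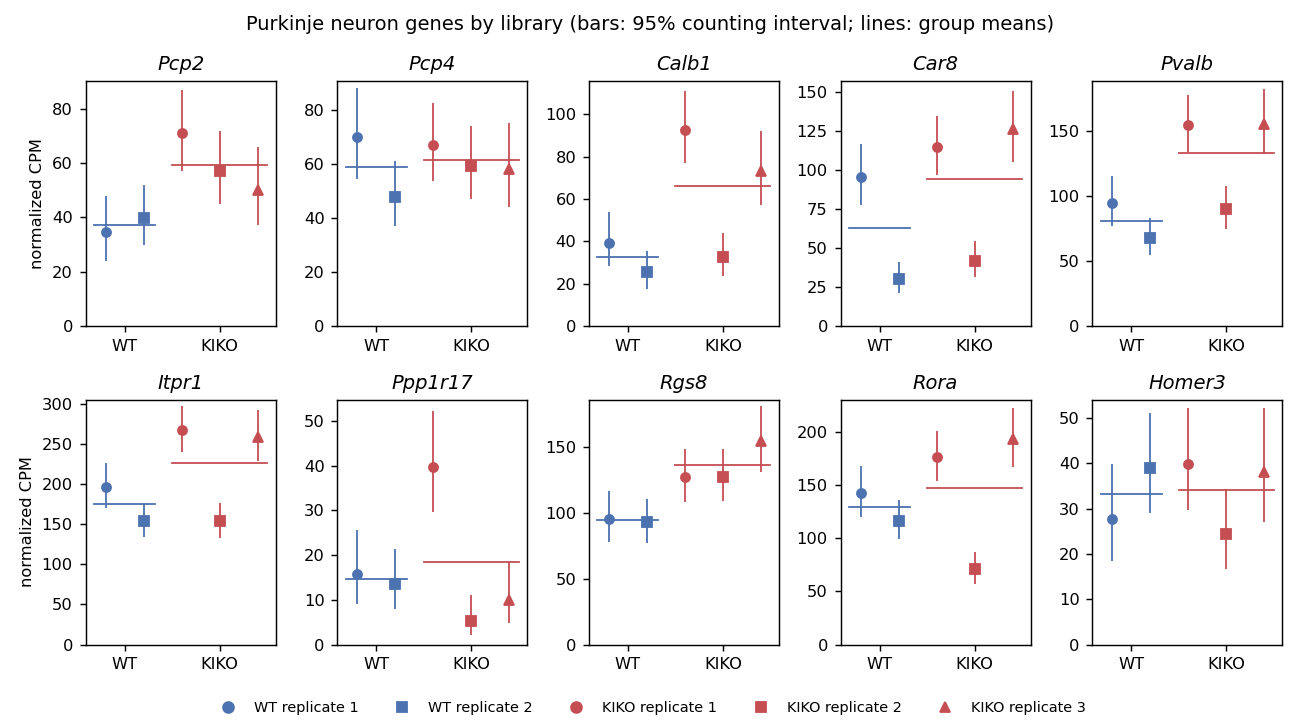
Normalized CPM (y axis) of each of the 10 Purkinje neuron genes in the 2 WT and 3 KIKO libraries, with exact Poisson 95% counting intervals as bars and group means as lines. The KIKO points sit above both WT points for *Pcp2* and *Rgs8*; for *Calb1*, *Car8*, *Pvalb*, *Itpr1* and *Rora*, KIKO replicate 2 falls well below the other KIKO libraries.

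Levels are given as CPM, the counts of a gene scaled to the normalized total count of its library. The first group acts at the calcium store. *Itpr1*, the IP3 receptor that releases calcium from the endoplasmic reticulum (chr6:108213096-108551109, plus strand), had 197.1 and 154.3 CPM in WT and 268.0, 153.9 and 259.6 in KIKO. KIKO replicates 1 and 3 were above both WT libraries, while KIKO replicate 2 was level with the lower of them, so that the groups overlapped. Its log2 fold change was 0.37 (SE 0.40, 95% interval −0.54 to 1.28), and 0.59 (0.06 to 1.11) without KIKO replicate 2. *Car8*, a carbonic anhydrase relative without enzyme activity that binds ITPR1 and lowers its affinity for IP3 (chr4:8143362-8239041, minus strand), had 95.6 and 30.0 CPM in WT against 114.5, 41.9 and 126.3 in KIKO. The groups overlapped, since both replicates numbered 2 were low, with intervals from counting error of 21.4 to 40.8 in WT and 31.6 to 54.5 in KIKO. For this gene the log2 fold change was 0.59 (SE 0.63, −0.84 to 2.03), 0.96 (0.22 to 1.70) without KIKO replicate 2, and −0.03 without WT replicate 2. *Homer3*, a scaffold of the postsynaptic density that ties metabotropic glutamate receptors to ITPR1 (chr8:70282827-70294361, plus strand), had 27.6 and 39.0 CPM in WT and 39.7, 24.4 and 38.1 in KIKO. The WT values lay within the KIKO range. A log2 fold change of 0.03 (SE 0.47, −1.04 to 1.10) became 0.21 without KIKO replicate 2, and fell below 0 without WT replicate 1 (−0.20), KIKO replicate 1 (−0.09) or KIKO replicate 3 (−0.06).

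The second group binds calcium or acts on its sensor calmodulin. *Calb1*, which encodes the calcium buffer calbindin (chr4:15881264-15908064, plus strand), had 39.4 and 25.5 CPM in WT and 92.7, 32.8 and 73.2 in KIKO. KIKO replicates 1 and 3 were far above both WT libraries, whereas KIKO replicate 2 fell between them. Its log2 fold change was the highest of the 10, 1.03 (SE 0.54, 95% interval −0.20 to 2.27), and 1.37 (0.65 to 2.09, edgeR adjusted p = 0.231) without KIKO replicate 2. *Pvalb*, the calcium buffer parvalbumin (chr15:78191114-78206400, minus strand), had 94.6 and 67.4 CPM in WT and 154.3, 89.9 and 155.3 in KIKO. KIKO replicate 2 was again between the WT libraries and the other KIKO libraries were above them. The log2 fold change was 0.72 (SE 0.41, −0.22 to 1.66), and 0.94 (0.35 to 1.52, edgeR adjusted p = 0.342) without KIKO replicate 2. *Pcp4*, a small protein that speeds the exchange of calcium on calmodulin (chr16:96467606-96525793, plus strand), had 70.0 and 47.9 CPM in WT and 67.0, 59.4 and 58.1 in KIKO. All KIKO values were between the WT values. Its log2 fold change was 0.07 (SE 0.39, −0.82 to 0.95), 0.09 without KIKO replicate 2, and −0.20 without WT replicate 2.

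The third group regulates G proteins. *Pcp2*, which binds Gi and Go subunits and is the gene whose promoter is widely used to target Purkinje neurons (chr8:3623371-3625545, minus strand), had 34.5 and 39.7 CPM in WT and 70.9, 57.1 and 50.1 in KIKO. The groups did not overlap, and KIKO replicate 2 was in the middle of its group. The log2 fold change was 0.68 (SE 0.41, 95% interval −0.25 to 1.61) and 0.70 (−0.03 to 1.44) without KIKO replicate 2. *Rgs8*, a GTPase activator that shortens G protein signals (chr1:153653025-153700323, plus strand), had 95.6 and 92.9 CPM in WT and 127.0, 127.2 and 154.3 in KIKO. Here too all KIKO libraries were above both WT libraries, with KIKO replicates 1 and 2 level. The log2 fold change was 0.53 (SE 0.35, −0.26 to 1.33) and 0.57 (−0.002 to 1.15) without KIKO replicate 2.

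The last pair are a phosphatase inhibitor and a transcription factor. *Ppp1r17*, a substrate of cGMP-dependent protein kinase that then inhibits protein phosphatases (chr6:56017497-56032689, plus strand), had 15.8 and 13.5 CPM in WT and 39.7, 5.33 and 10.02 in KIKO. KIKO replicate 1 alone was above the WT libraries and the other KIKO libraries were below them. The gene rested on 7 to 51 counts per library, and the 7 counts of KIKO replicate 2 gave a counting interval of 2.14 to 11.0 CPM. The log2 fold change was 0.34 (SE 0.87, 95% interval −1.65 to 2.32), 0.79 without KIKO replicate 2, and −0.93 without KIKO replicate 1. *Rora*, the nuclear receptor mutated in the staggerer mouse (chr9:68653786-69388246, plus strand), had 142.9 and 116.9 CPM in WT and 176.9, 70.9 and 193.4 in KIKO. KIKO replicates 1 and 3 were above both WT libraries and KIKO replicate 2 was below them. For *Rora* the log2 fold change was 0.18 (SE 0.48, −0.91 to 1.27), 0.51 (−0.04 to 1.06) without KIKO replicate 2, and −0.07 without KIKO replicate 3.

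The adjusted p was 1 for each of the 10 genes in the fit over all 5 libraries. In that fit the 95% intervals of all 10 genes contained 0, and for all 10 they reached beyond a log2 fold change of 0.75, so that a difference of the size of the threshold could not be told from none at this depth and number of libraries. Exons of 6 of the 10 genes overlap those of another annotated gene, and whether counting used strand is not given in the sources used here. *Pcp2* overlaps *Pet100*, which lies antisense and had 44 and 52 counts in WT and 97, 35 and 33 in KIKO. *Homer3* overlaps antisense *Ddx49*, with 17 and 36 counts in WT and 17, 4 and 25 in KIKO. *Pcp4* shares exon bases with *Igsf5* (at most 7 counts in a library), and *Itpr1*, *Rgs8* and *Rora* overlap antisense gene models that held 0 counts or are not analysed here.

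**Figure D2:**
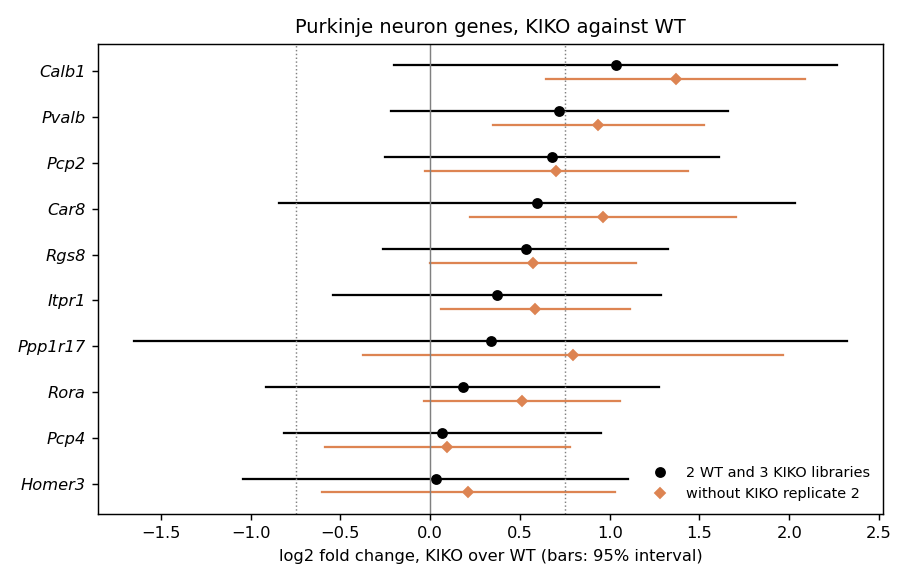
Log2 fold change of KIKO over WT (x axis) for each gene, with 95% intervals as bars, over all 5 libraries (black circles) and without KIKO replicate 2 (orange diamonds). Dotted lines mark the study's threshold; all 10 black circles are right of 0 with bars that cross it, and *Calb1*, *Car8*, *Pvalb* and *Itpr1* have orange bars that stay above 0.

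The 10 genes did not vary in one pattern over the libraries. Their summed level was 813.1 and 627.0 CPM in WT (720.0 ± 131.6, SD, n = 2) and 1151, 662.8 and 1119 CPM in KIKO (977.4 ± 272.9, SD, n = 3), from 825 to 1477 counts a library. KIKO replicate 2 lay between the WT libraries, and the ratio of the group means was 1.36, or 0.44 on the log2 scale, against 0.66 without that library and 0.27 without WT replicate 2. Without *Itpr1*, *Rora* and *Pvalb* the log2 ratio of the sums was 0.50. No test was made on the sums. The distance of each gene's centred log2 CPM from that of the sum, as the root mean square over the 5 libraries, was smallest for *Itpr1* (0.0359), which has the most counts of the 10, and *Pvalb* (0.145). It was largest for *Car8* (0.511) and *Ppp1r17* (0.797), and *Ppp1r17* rested on 7 to 51 counts per library. Each gene is itself part of the sum, so that genes with a high level are near to it partly for that reason. How much of these distances is counting error was not tested. The lowest value fell in KIKO replicate 2 for *Itpr1*, *Rora*, *Homer3* and *Ppp1r17*, in WT replicate 2 for *Calb1*, *Car8*, *Pvalb*, *Pcp4* and *Rgs8*, and in WT replicate 1 for *Pcp2*.

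Among 7480 other genes with a mean of at least 20 CPM, those near to the pattern of the sum by the same distance over the 5 libraries included *Myadm* (0.0634), *Utp11* (0.0652), *Rbck1* (0.0837) and *Gon4l* (0.0929). *Myadm*, for example, had 24.6 and 18.0 CPM in WT and 32.0, 17.5 and 33.1 in KIKO. Exons of *Myadm* overlap those of another gene on the same strand.

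Markers of other cell types differed between the libraries as well. Pan-neuronal is used here as the name of a list of general neuronal markers. Whether Purkinje neurons express each of them was not examined, so their sum does not stand for all neuronal RNA. The summed level of 12 pan-neuronal genes, led by *Rbfox3* and *Snap25*, was 4909 and 3175 CPM in WT and 4688, 2414 and 4982 in KIKO. That of 14 granule neuron genes, led by *Grin2c* and *Zic1*, was 4574 and 3680 in WT and 4059, 2873 and 3631 in KIKO. Both sums overlapped between the groups and were lowest in KIKO replicate 2, and the pan-neuronal sum was next lowest in WT replicate 2, the libraries in which the Purkinje sum was low. Those 2 libraries were the highest for 8 oligodendrocyte genes, *Mbp* among them, with 5271 and 11970 CPM in WT and 4694, 19030 and 6034 in KIKO. They were also the highest for 12 microglial genes, led by *Csf1r*, with 5359 and 6805 CPM in WT and 4694, 11940 and 5424 in KIKO. The 8 choroid plexus genes (*Ttr* and *Enpp2* highest) ranged from 12810 to 13860 CPM in WT and from 7839 to 15440 in KIKO. The 7 endothelial genes (*Flt1*, *Ly6c1*) ranged from 411 to 873 and from 475 to 856, the 10 astrocyte and Bergmann glia genes (*Slc1a3*, *Aldoc*) from 339 to 551 and from 462 to 581, and the 10 genes of molecular layer interneurons and Golgi neurons (*Tfap2b*, *Kit*) from 75.7 to 136 and from 77.0 to 135. No gene of these 8 lists was at 0 in all libraries. The part of this variation in the values of the Purkinje neuron genes was not tested.

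**Figure D3:**
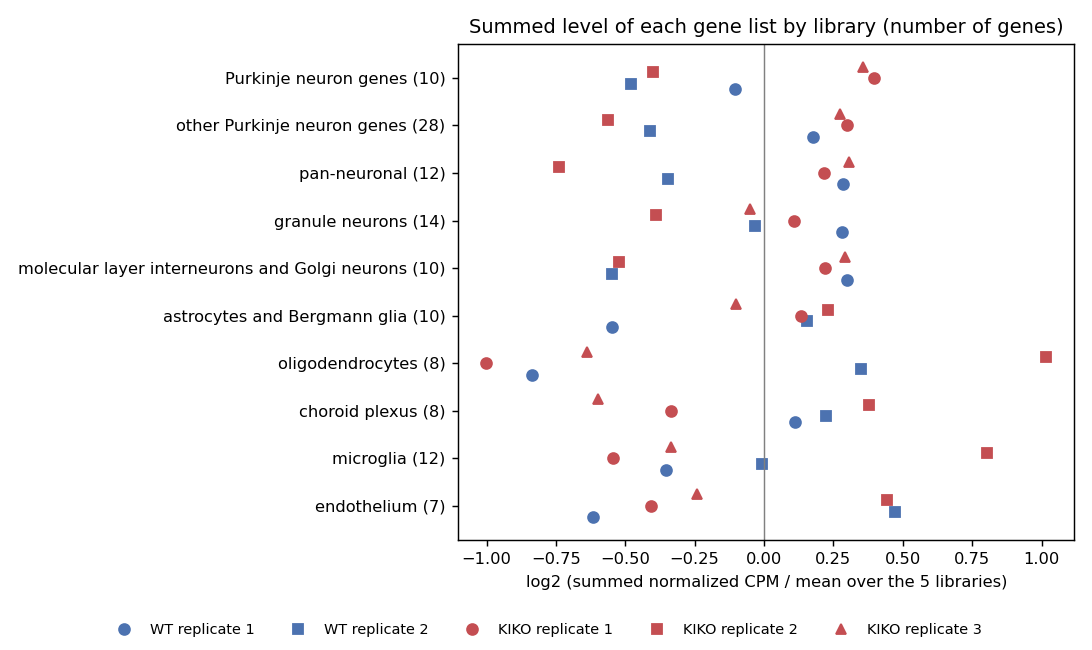
Summed normalized CPM of each gene list in each library, as log2 of its ratio to the mean over the 5 libraries (x axis), with the number of genes in brackets. WT replicate 2 and KIKO replicate 2 are on the left for the neuronal lists and on the right for oligodendrocytes and endothelium. For granule neurons, however, WT replicate 2 is close to the middle line and KIKO replicate 3 is further left. KIKO replicates 1 and 3 are the highest points of the 10 Purkinje neuron genes.

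Set against the granule neuron genes or the pan-neuronal genes of the same library, the Purkinje sum no longer overlapped between genotypes. Both scales were chosen after the values had been seen. As a percentage of the granule neuron sum it was 17.8 and 17.0 in WT (17.4 ± 0.523, SD, n = 2) and 28.4, 23.1 and 30.8 in KIKO (27.4 ± 3.95, SD, n = 3). The ratio of the means was 1.58, or 0.66 on the log2 scale, and 0.77 without KIKO replicate 2. As a percentage of the pan-neuronal sum it was 16.6 and 19.8 in WT (18.2 ± 2.25, SD, n = 2) and 24.6, 27.5 and 22.5 in KIKO (24.8 ± 2.52, SD, n = 3). That ratio was 1.37, or 0.45 on the log2 scale, and 0.37 without KIKO replicate 2. The Purkinje sum of KIKO replicate 2, 662.8 CPM, lay between those of the WT libraries. The granule and pan-neuronal sums of that library, 2873 and 2414 CPM, were the lowest of the 5 libraries. On both scales all KIKO libraries, KIKO replicate 2 included, were above both WT libraries. The same was seen without *Itpr1*, *Rora* and *Pvalb*, at 8.27% and 7.84% of the granule sum in WT against 13.6%, 12.1% and 14.1% in KIKO, and at 7.71% and 9.08% of the pan-neuronal sum against 11.8%, 14.4% and 10.2%.

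Gene by gene on the granule scale, *Pcp2*, *Pcp4*, *Calb1*, *Pvalb*, *Itpr1* and *Rgs8* had all KIKO above all WT libraries, 6 of 10 beside a background of 13.6% of the genes tested. On the pan-neuronal scale these were *Calb1*, *Pvalb* and *Itpr1*, 3 of 10 beside a background of 4.60%. Without KIKO replicate 2 these counts were 8 of 10 beside 24.1%, with *Car8* and *Rora* added, and 5 of 10 beside 7.26%, with the same genes added. The mean was higher in KIKO for all 10 genes on the first scale and for 9 on the second, where *Homer3* had a ratio of 0.977. The pan-neuronal sum itself was 107.3% and 86.3% of the granule sum in WT and 115.5%, 84.0% and 137.2% in KIKO, with the groups overlapping. These are relative values: they do not say whether the Purkinje neuron genes were higher or the other neuronal genes lower. Nor do they tell RNA per cell from the number of cells. What they reflect also depends on the source of the libraries, on which the labels and the study's methods differ.

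**Figure D4:**
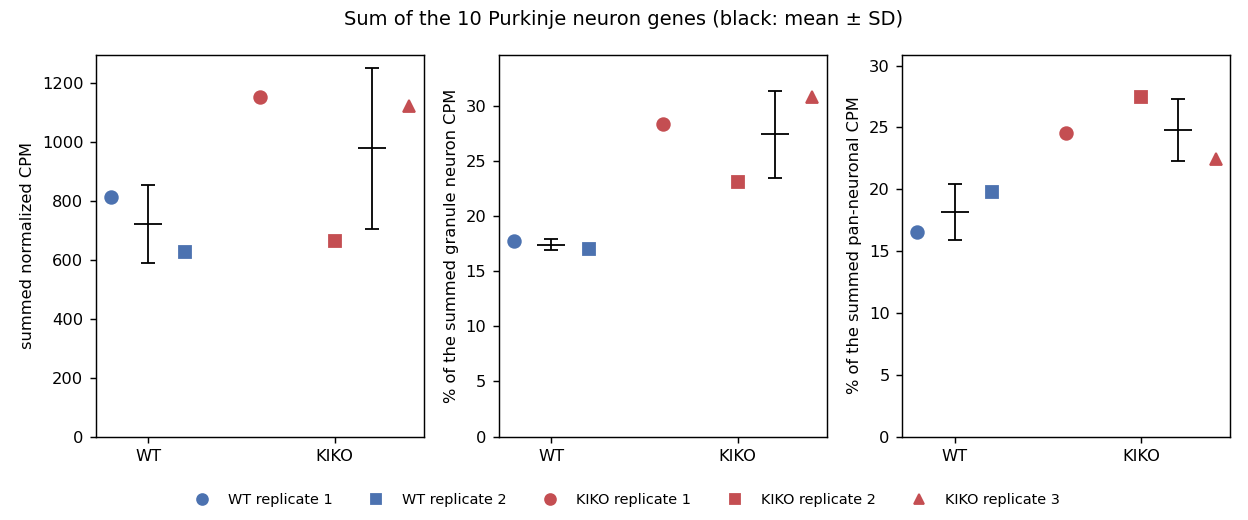
Sum of the 10 Purkinje neuron genes in each library as normalized CPM (left), as a percentage of the summed granule neuron genes (middle) and of the summed pan-neuronal genes (right), with mean ± SD in black. The genotypes overlap in the left panel, where KIKO replicate 2 is at 662.8, and are separate in the other panels.

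A wider list of 28 other genes known from Purkinje neurons held 23 that could be tested, of which 19 had a positive and 4 a negative log2 fold change, beside 51.9% positive over all genes. Their log2 fold changes ran from −1.17 to 2.01. The median was 0.57, beside 0.02 over all genes, and 1 of 23 passed the thresholds, higher in KIKO, beside a background of 0.716%. That gene was *Dner*, a Notch ligand by which Purkinje neurons signal to Bergmann glia (chr1:84369839-84696221), with 38.4 and 19.5 CPM in WT and 73.2, 64.0 and 61.1 in KIKO. All KIKO libraries were above both WT libraries. Its log2 fold change was 1.20 (SE 0.46, adjusted p = 1 by edgeR), and 1.24 without KIKO replicate 2. Among the genes with the highest mean level were the ion channels *Cacna1a*, the P/Q-type calcium channel, at 1710 and 1195 CPM in WT and 1812, 1298 and 1880 in KIKO, and the potassium channel *Kcna1* at 333.1 and 300.4 against 321.0, 38.9 and 371.8. Both overlapped between the genotypes, and *Kcna1* was very low in KIKO replicate 2. *Skor2*, a transcriptional regulator of developing Purkinje neurons, was at 0 in all 5 libraries, where 3 counts correspond to 2.25 to 3.01 CPM. Without KIKO replicate 2, 20 of 22 tested genes were above 0 with a median of 0.58, beside 49.1% and −0.01 over all genes. Of the 22, 5 passed the thresholds, all higher, beside a background of 2.94%: the glutamate transporter *Slc1a6*, the T-type calcium channel *Cacna1g*, the GABA-synthesising enzyme *Gad1*, the calcium release channel *Ryr1* and *Dner*. Counts in WT were low for some of them, with 5 and 8 for *Slc1a6* and 21 and 8 for *Ryr1*. Per summed granule neuron CPM this list overlapped between genotypes (76.7% and 63.4% in WT, 94.1%, 73.1% and 103.3% in KIKO), only through KIKO replicate 2. Per summed pan-neuronal CPM it did not (71.5% and 73.5% in WT, 81.4%, 87.0% and 75.3% in KIKO). *Cacna1a* alone gave 1710 and 1195 CPM of this list's 3509 and 2333 in WT. In KIKO it gave 1812, 1298 and 1880 of 3817, 2100 and 3751. These percentages therefore rest largely on this gene, and whether the genotypes separate without it was not examined.

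The pathway from metabotropic glutamate receptors to calcium release was followed with 29 genes from receptors to calcium sensors, some of which are also in the list above. Of the 27 tested, 21 had a positive and 6 a negative log2 fold change, the median was 0.21 (0.02 over all genes), and none passed the thresholds or had an unadjusted p under 0.05. *Gnao1*, a G protein subunit, had 603.1 and 394.0 CPM in WT and 631.9, 385.5 and 648.5 in KIKO. It did not separate the genotypes. Without KIKO replicate 2, 22 of 26 tested genes were above 0 with a median of 0.30, and *Ryr1* alone passed the thresholds, beside a background of 2.94%.

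In the other lists over all 5 libraries, *Thy1* among the 12 pan-neuronal genes and *Gfap* among the 10 astrocyte and Bergmann glia genes passed the thresholds, both higher in KIKO, beside a background of 0.716%. Without KIKO replicate 2 the 14 granule neuron genes had a median of −0.02 with none past the thresholds, and the 12 pan-neuronal genes a median of 0.38 with 4 past them (*Syt1*, *Nefl*, *Nefm* and *Thy1*), all higher, beside a background of 2.94%. In the same fit 3 of 8 choroid plexus genes (*Kl*, *Folr1* and *Clic6*), 2 of 8 oligodendrocyte genes (*Mbp* and *Mog*) and 1 of 12 microglial genes (*Itgam*) passed, all lower, beside a background of 3.51%. Whether the Purkinje neuron genes differed from the other lists was not tested.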

How the data were processed

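Polyadenylated RNA of mouse cerebellum was sequenced. The labels name a lipid tissue kit and a stranded library kit, and the study's methods another kit and single-end digital mRNA sequencing. Levels of different genes, and percentages between gene lists, can therefore not be read as relative numbers of transcripts. They were used to compare libraries and to order genes by level. The authors trimmed reads, aligned them to mm10 with HISAT2, counted them with featureCounts and deposited gene counts and log2 values. The annotation and strand setting are not given in the sources used here. The deposited log2 values are log2 of (count divided by a DESeq2 size factor, plus 1): this returned the counts within 0.01 for 100% of values. Each table holds columns of per-sample values that match no sample label, 2 of counts and 2 of log2 values, which were not used. Their names hold KIKO and BUT, and BUT is the study's abbreviation for butyrate. Of 31053 gene IDs 30934 matched a symbol in the reference table.

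Genes kept by filterByExpr (minimum count 10, minimum total 15; 10889 genes, 98.6% to 98.94% of counts) were fitted with edgeR 4.0.16 in R 4.3.3 (TMM, quasi-likelihood, KIKO against WT, common biological coefficient of variation 0.468), with Benjamini-Hochberg adjustment. Normalized CPM used the TMM library sizes. Counting intervals are exact Poisson at 95% and cover counting error only. Alternatives were RLE factors, library size alone, all genes of at least 1 count, at least 10 counts in every sample, DESeq2 1.42.0, limma 3.58.1 with trend on the log2 values, the replicate number as a block, and leaving out each library. The scripts were tested on simulated counts. The 10 genes and all lists were chosen with earlier results of these data known. The text names all 10, genes of the wider Purkinje and pathway lists that passed the thresholds or were among the 3 highest, the 2 highest genes of each marker list with those at 0 throughout, and the 5 genes nearest in pattern; some genes that this rule names, and the check of the targeted gene, are not reported here. Gene positions are from the GENCODE annotation of GRCm38 and promoters from RefSeq.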

Additional observations from a re-analysis of the deposited data

How the results depend on the processing

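The number of Purkinje neuron genes past the thresholds was 0 in every fit except that without KIKO replicate 2, and ranged from 0 to 3 when one library was left out. Where a WT library was left out, the remaining one was assumed to vary like the KIKO libraries. The log2 fold change turned sign for *Ppp1r17* with limma (−0.13). Leaving out single libraries gave ranges of −0.027 to 1.65 for *Car8*, −0.20 to 0.29 for *Homer3*, −0.20 to 0.35 for *Pcp4*, −0.93 to 0.79 for *Ppp1r17* and −0.065 to 0.51 for *Rora*, and no sign changed for *Pcp2*, *Calb1*, *Pvalb*, *Itpr1* and *Rgs8* in any alternative run. With at least 10 counts in every sample *Ppp1r17* was not tested. The median of the 10 genes ranged from 0.26 (without WT replicate 2) to 0.64 (without KIKO replicate 2), and the log2 ratio of the sums from 0.27 to 0.66 for the same libraries. Per granule sum the log2 ratio ranged from 0.56 to 0.77 and per pan-neuronal sum from 0.33 to 0.58.

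When the replicate number was blocked the median was 0.30, the values of *Homer3* and *Rora* were −0.076 and −0.20, and none of the 10 genes passed the thresholds. KIKO replicate 3 has no WT library of its number here. This fit therefore took the genotype difference from replicates 1 and 2 alone, KIKO replicate 2 included. The labels do not say that a number marks a shared litter or day. Deviations from the group means correlated at 0.17 and 0.225 for the libraries with the same number and at −0.225 to 0.205 for the others. The deviations of 2 WT libraries from their mean mirror each other, so that each value has a counterpart of opposite sign. These correlations therefore cannot show whether the numbers pair libraries.

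Over all genes, 131 passed the thresholds (78 higher, 53 lower). This was 383 when every gene with 1 count or more was kept, 271 with the replicate block (109 higher, 162 lower), and 56 (without WT replicate 1) to 669 (without KIKO replicate 2) when one library was left out. DESeq2 gave 96 higher and 40 lower. An adjusted p under 0.05 was reached by 0 genes, by 1 when every gene with 1 count or more was kept, and by 0 to 5 when one library was left out, the 5 without KIKO replicate 2. What caused these differences was not tested. The counts of 7 to 344 per gene and library and the 5 libraries limited all intervals.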
